A study of Mus musculus with 12 samples.

Results

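Gata4, Gata5, Gata6 and Zfpm2 (the gene of FOG2, also written Fog2) code for the cardiac GATA factors and their cofactor, and their transcript levels were compared across 4 cell populations sorted from cultures of mouse embryonic stem cells that were forming heart progenitors. The genes were taken by symbol from the platform annotation of the array. They are 4 of the 18193 genes that the annotation names singly, and 9 of its 34945 probe sets with 1 gene belong to them. Each gene is given by the probe set that was brightest on average over all arrays, and its other probe sets follow it. All 4 passed the filter on low values that left 13698 genes for testing.

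The cells were dissociated from embryoid bodies, aggregates grown in hanging drops, on day 6 of differentiation. All of them derive from cells with 2 transgenic reporters, a red one (dsRed) specific to the second heart field, from which outflow tract and right ventricle form, and a green one (eGFP) under an enhancer specific to the heart. Flow sorting gave cells with both colours (R+G+), red alone (R+G-), green alone (R-G+) or neither colour (R-G-), and each population has 3 arrays, labelled experiment A, B and C. The labels name neither the enhancers nor the cell clone, and do not say whether the experiments are separate cultures, so p-values measure the spread between these arrays, which may be partly technical.

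GATA4, GATA5 and GATA6 are zinc finger proteins that bind the sequence GATA in the promoters and enhancers of heart and endoderm genes. They act together with other cardiac factors such as NKX2-5, TBX5, MEF2C and HAND2, which bind them directly. FOG2 does not itself bind these sites: it docks on the amino-terminal zinc finger of a GATA factor and can recruit the NuRD corepressor complex, and mice without it have defects of the heart and of its coronary vessels. Gata4 is needed for both sides of the heart field to fuse into a tube, Gata6 for the outflow tract, and Gata5 is linked to the endocardium.

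The RefSeq promoter table (GRCm38.p6) had an entry for Gata5 alone among the 4 genes. The 250 bases before the Gata5 start are shown as the promoter of a member, next to those of 3 genes known as cardiac GATA targets whose values are given further on and whose windows hold a GATA motif. Capitals mark the GATA motif searched for, the letters GATA with A or T before them and A or G after them, on either strand. No matches overlap in these windows. The Gata5 window lies at chr2:180334680-180334929 on the minus strand, inside the interval RefSeq gives to the gene as a whole. The Hand2 window lies at chr8:57320733-57320982 on the plus strand, that of Slc8a1, the sodium-calcium exchanger, at chr17:81738388-81738637 on the minus strand, and that of Tnnt2, cardiac troponin T, at chr1:135836084-135836333 on the plus strand.
Gata5: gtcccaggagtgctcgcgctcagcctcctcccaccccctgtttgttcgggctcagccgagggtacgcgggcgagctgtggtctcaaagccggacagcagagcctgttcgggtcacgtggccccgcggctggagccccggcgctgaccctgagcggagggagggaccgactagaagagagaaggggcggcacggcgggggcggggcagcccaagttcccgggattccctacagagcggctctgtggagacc
Hand2: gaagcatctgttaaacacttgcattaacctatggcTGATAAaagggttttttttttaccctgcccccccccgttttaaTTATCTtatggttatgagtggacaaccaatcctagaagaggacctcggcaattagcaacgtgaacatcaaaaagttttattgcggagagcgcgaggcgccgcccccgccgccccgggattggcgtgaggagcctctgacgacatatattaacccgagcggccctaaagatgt
Slc8a1: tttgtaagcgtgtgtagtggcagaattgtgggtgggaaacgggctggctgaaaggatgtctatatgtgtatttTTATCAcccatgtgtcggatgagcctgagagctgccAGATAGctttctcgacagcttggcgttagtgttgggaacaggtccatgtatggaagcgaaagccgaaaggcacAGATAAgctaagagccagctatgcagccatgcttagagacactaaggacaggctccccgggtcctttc
Tnnt2: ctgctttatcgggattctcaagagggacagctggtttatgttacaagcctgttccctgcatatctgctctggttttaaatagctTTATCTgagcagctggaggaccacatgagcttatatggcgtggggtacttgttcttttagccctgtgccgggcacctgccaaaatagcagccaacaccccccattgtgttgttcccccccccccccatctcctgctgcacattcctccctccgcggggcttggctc
The Gata5 window has 70.0% G and C and 0 of these motifs. The Hand2 window has 2, beginning 215 and 172 bases before the start, the Slc8a1 window 3, at 177, 141 and 68 bases, and the Tnnt2 window 1, at 166 bases. Of all 32851 promoter windows of that length, 26.5% hold a match. The share was 9 of 29 windows (31.0%) for the cardiac GATA target list and 6 of 19 (31.6%) for the GATA partner list. Other lists described further on lay on both sides of these shares. Blood genes had 7 of 14, neural genes 41.7% and pluripotency genes 38.5%, while inducers of cardiac GATA genes had 8.7% and endothelial genes 8.33%. The target and partner lists thus did not stand out, and differences between lists were not tested. A match is a run of letters and no measure of binding.

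The arrays were of like brightness, with median intensities between 6.29 and 6.73 units and single values from 2.09 to 8547, and their number limits the precision. The reporter transcripts themselves were not read here, so the sort was not checked on its colours. Isl1, a transcription factor of the second heart field, averaged 86.7 ± 9.5 in R+G+, 101 ± 5.6 in R+G- and 80.5 ± 7.9 in R-G+ arrays, against 44.5 ± 9.0 in R-G- arrays (SD, n = 3 each), and was called higher than in R-G- cells in all 3. The summed intensity of 14 cardiomyocyte genes was 23334 to 31328 in R+G+, 4004 to 6185 in R+G- and 12368 to 14822 in R-G+ arrays, against 439 to 716 in R-G- arrays. That of 13 pluripotency genes was 322 to 383, 191 to 252 and 230 to 267 in the same order, against 1530 to 1839 in R-G- arrays. The R+G+ sum includes a high level of Tdgf1, a gene of this list. Tdgf1 averaged 192 in R+G+, 28.1 in R+G-, 61.1 in R-G+ and 59.6 in R-G- cells. R-G+ A lay furthest from its population mean, where the SD of its log2 deviations was 0.192 and that of the other arrays 0.102 to 0.150. Actin signal at the 3' end was 1.32 to 1.55 times that at the 5' end, a sign of RNA quality. Because these are bulk samples, fewer cells with a transcript and less transcript per cell cannot be told apart.

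Transcripts of all 3 GATA genes were several times higher in the 3 reporter-positive populations than in R-G- cells. On its brighter probe set Zfpm2 was higher by a smaller amount and passed the test in 2 of the 3. Its dimmer probe set, described further on, passed in all 3. In limma fits to log2(intensity + 4.10) with Benjamini-Hochberg adjustment over the 13698 genes, R+G+ cells had 4 of the 4 genes called higher than R-G- cells, against a background of 13.9% of all genes called higher. R+G- cells also had 4 of 4, against 10.9%, and R-G+ cells 3 of 4, against 9.33%. The median log2 fold change of all genes in these comparisons was within 0.02 of 0 (-0.01, -0.02 and -0.01).

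**Figure D1:**
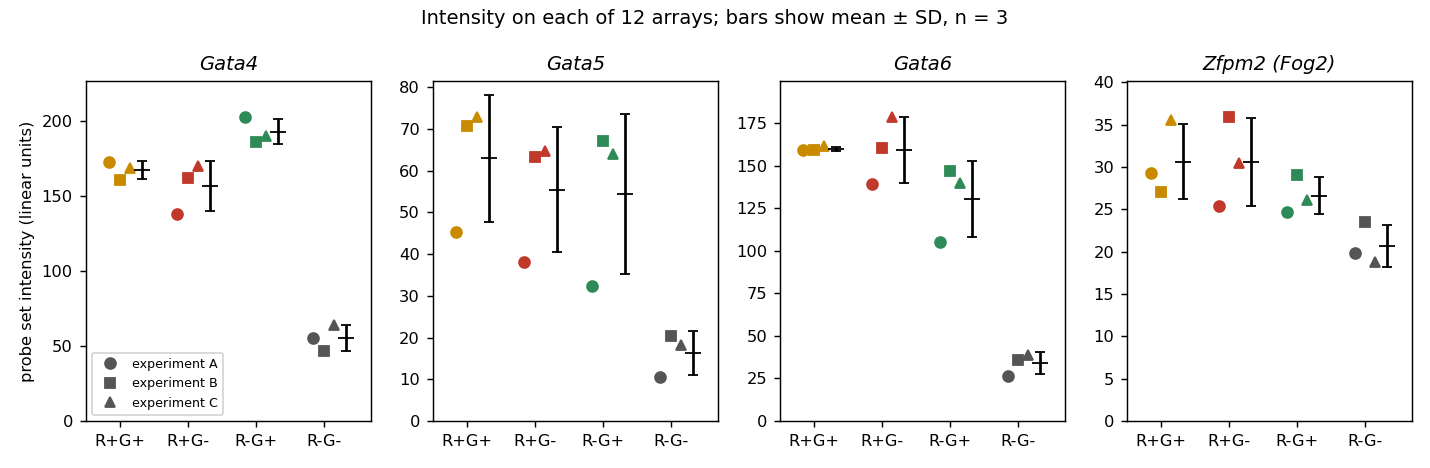
Intensity (linear units, vertical axis from 0) of Gata4, Gata5, Gata6 and Zfpm2 on each of 12 arrays, by population; symbols give the experiment, and bars the mean ± SD of 3 arrays. R-G- arrays are the lowest for every gene, and the experiment A arrays (circles) are the lowest of each population for Gata5.

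Gata4, which is among the earliest markers of heart mesoderm and has a role in endoderm too, had intensities of 172.4, 160.8 and 168.4 in R+G+ cells of experiments A, B and C. In R+G- cells they were 137.9, 162.3 and 169.9, in R-G+ cells 202.4, 186.2 and 190.3, and in R-G- cells 55.5, 46.7 and 63.7. Every reporter-positive array was above every R-G- array, and every R-G+ array was above all the others. On the log2 scale Gata4 was higher than in R-G- cells by 1.54 in R+G+ cells (SE 0.11, adjusted p = 2.7e-07), 1.44 in R+G- cells (SE 0.11, adjusted p = 1.6e-06) and 1.74 in R-G+ cells (SE 0.11, adjusted p = 2.6e-07). Within single experiments the differences were 1.35 to 1.70, 1.25 to 1.71 and 1.52 to 1.91 in that order, all positive.

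Gata5, known from the endocardium, had intensities of 45.4, 70.8 and 72.8 in R+G+ cells of experiments A, B and C. R+G- cells had 38.1, 63.3 and 64.8, R-G+ cells 32.4, 67.0 and 63.9, and R-G- cells 10.4, 20.4 and 18.3. The groups did not overlap with R-G- cells, but experiment A had the lowest array in all 4 populations. The log2 fold change over R-G- cells was 1.72 in R+G+ cells (SE 0.28, adjusted p = 0.00045), 1.54 in R+G- cells (SE 0.28, adjusted p = 0.0016) and 1.49 in R-G+ cells (SE 0.28, adjusted p = 0.0023). Its SE was the largest of the 4 genes. Without experiment C the R-G+ value was 1.43 and missed the threshold (adjusted p = 0.055).

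In a model with the experiment letter as a block, Gata5 was the 1 gene of the 4 that differed among experiments (adjusted p = 0.00081, against 2.42% of all genes called). Its log2 level was higher by 0.75 in experiment B than in A and by 0.72 in C than in A. The adjusted p for the other genes was 0.54 for Gata4, 0.10 for Gata6 and 0.46 for Zfpm2. Within experiments Gata5 was higher than in R-G- cells by 1.61 to 1.78 in R+G+, 1.46 to 1.62 in R+G- and 1.33 to 1.61 in R-G+ cells. With the block, the limma adjusted p for Gata5 over R-G- cells was 2.1e-08 in R+G+, 1.5e-07 in R+G- and 1.5e-07 in R-G+ cells. The larger SE and adjusted p of the fit without the letter thus include the spread of Gata5 among experiments.

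Gata6, required in the outflow tract and also in the first endoderm of the embryo, had intensities of 159.2, 159.2 and 161.7 in R+G+ cells of experiments A, B and C. R+G- cells had 139.4, 160.3 and 178.5, R-G+ cells 105.1, 147.0 and 139.8, and R-G- cells 26.6, 36.1 and 39.0. Every R-G+ array was below every R+G+ array, and the lowest of them was R-G+ A. The log2 fold change over R-G- cells was 2.13 in R+G+ cells (SE 0.14, adjusted p = 2.1e-07), 2.11 in R+G- cells (SE 0.14, adjusted p = 8.3e-07) and 1.83 in R-G+ cells (SE 0.14, adjusted p = 1.7e-06). The last value was 1.97 without R-G+ A.

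Zfpm2, the FOG2 gene, had intensities of 29.3, 27.1 and 35.5 in R+G+ cells of experiments A, B and C. R+G- cells had 25.4, 35.9 and 30.4, R-G+ cells 24.7, 29.0 and 26.1, and R-G- cells 19.9, 23.5 and 18.7. The R-G- arrays were the lowest, but the gap between the highest of them and the lowest R-G+ array was small. The log2 fold change over R-G- cells was 0.48 in R+G+ cells (SE 0.12, adjusted p = 0.0085) and 0.48 in R+G- cells (SE 0.12, adjusted p = 0.012). In R-G+ cells it was 0.31 (95% interval 0.04 to 0.57, adjusted p = 0.098), which did not pass. Both calls rested on few arrays: the R+G+ value was 0.33 without experiment C (adjusted p = 0.21), and the R+G- value was 0.37 without R+G- B (adjusted p = 0.060), 0.42 without R-G- C (adjusted p = 0.053) and 0.42 without experiment C (adjusted p = 0.14).

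Among the 3 reporter-positive populations none of the 12 differences of the 4 genes passed the test (0 of 4 in each comparison). The background was 12.1% of all genes called in either direction between R+G+ and R+G- cells, 5.63% between R+G+ and R-G+ cells and 3.08% between R+G- and R-G+ cells. At an unadjusted p under 0.05, limma gave 1 of the 12, Gata4 between R+G- and R-G+ cells. For the chosen probe set of each gene the adjusted calls were also 0 of 12 under the other settings tried, including the block for the experiment; the dimmer Zfpm2 probe set, described further on, was called between R+G+ and R+G- cells.

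The intervals show what sizes remain possible in the fit without the experiment letter, so those of Gata5 include its spread among experiments. Within experiments Gata5 was higher in R+G+ than in R+G- cells by 0.15 to 0.23, in 3 of 3. It was higher than in R-G+ cells by 0.08 to 0.44, also in 3 of 3. With the letter as a block neither passed in limma (adjusted p = 0.17 and 0.10). Between R+G+ and R+G- cells the log2 difference was 0.10 for Gata4 (95% interval -0.13 to 0.33), 0.18 for Gata5 (-0.43 to 0.80), 0.01 for Gata6 (-0.30 to 0.32) and 0.01 for Zfpm2 (-0.26 to 0.27). Between R+G+ and R-G+ cells it was -0.20 for Gata4 (-0.43 to 0.03), 0.23 for Gata5 (-0.38 to 0.85), 0.30 for Gata6 (-0.01 to 0.61) and 0.17 for Zfpm2 (-0.09 to 0.44).

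Between R+G- and R-G+ cells Gata4 and Gata6 had values of opposite sign. Gata4 differed by -0.30 (95% interval -0.53 to -0.07, adjusted p = 0.19), with lower values in R+G- cells in 3 of 3 experiments and no overlap of the arrays. Gata6 differed by 0.29 (-0.02 to 0.59, adjusted p = 0.38), with higher values in R+G- cells in 3 of 3 experiments and overlapping arrays, and by 0.14 without R-G+ A. Gata5 differed by 0.05 (-0.56 to 0.67) and Zfpm2 by 0.17 (-0.10 to 0.43). Whether the Gata4 and Gata6 differences are themselves different was not tested.

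**Figure D2:**
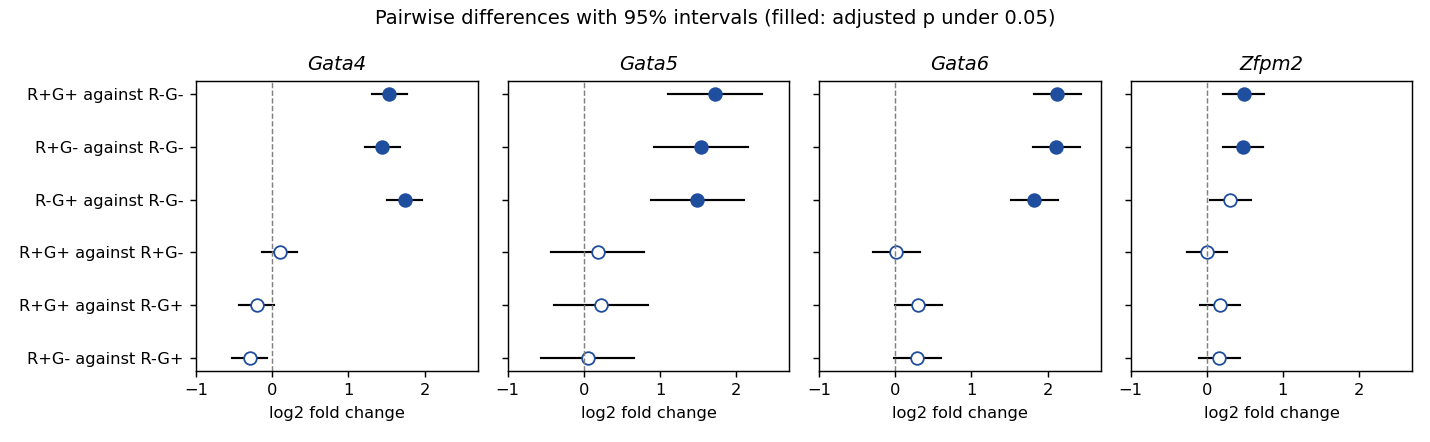
Log2 fold change (horizontal axes) of each gene in the 6 pairwise comparisons, with 95% intervals from the limma fit; filled points have an adjusted p under 0.05. Gata4, Gata5 and Gata6 lie between 1.44 and 2.13 in the 3 comparisons with R-G- cells, Zfpm2 between 0.31 and 0.48, and no comparison among reporter-positive cells is filled.

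In the order of mean levels, Gata4 ran from R-G+ (193 ± 8.4, SD, n = 3) over R+G+ (167 ± 5.9) and R+G- (157 ± 17) to R-G- cells (55.3 ± 8.5). Gata6 ran from R+G+ (160 ± 1.4) over R+G- (159 ± 20) and R-G+ (131 ± 22) to R-G- cells (33.9 ± 6.5). Gata5 ran from R+G+ (63.0 ± 15) over R+G- (55.4 ± 15) and R-G+ (54.4 ± 19) to R-G- cells (16.4 ± 5.2), and Zfpm2 in the same order with 30.6 ± 4.4, 30.6 ± 5.2, 26.6 ± 2.2 and 20.7 ± 2.5. For the GATA genes the step from the third to the fourth population was the only step between neighbours that passed the test, and for Zfpm2 no step between neighbours did. In an F-test of any difference among the 4 populations all 4 genes passed (adjusted p = 3.0e-07 for Gata4, 0.0012 for Gata5, 4.7e-07 for Gata6 and 0.021 for Zfpm2), as did 32.3% of all genes.

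The annotation gives the same genes further probe sets, and 5 of the 9 are not the ones used above. Fitted on all probe sets, 12.7% were called higher in R+G+, 9.77% in R+G- and 8.30% in R-G+ cells than in R-G- cells. The second probe sets of Gata4 (1418864_at), Gata5 (1450126_at), Gata6 (1425463_at) and Zfpm2 (1449314_at) were called higher in all 3 comparisons. For Gata4 the log2 values were 1.22, 0.99 and 1.38 in R+G+, R+G- and R-G+ cells, for Gata5 2.42, 1.90 and 2.01, and for Gata6 1.99, 1.78 and 1.51. The third Gata6 probe set (1443081_at) stood apart from these: its means of 7.1 ± 0.57 in R+G+, 5.9 ± 0.79 in R+G-, 6.8 ± 1.1 in R-G+ and 5.7 ± 1.1 in R-G- cells were close to the array medians, and it passed in none of them (log2 0.19, 0.03 and 0.16).

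The probe sets of Zfpm2 disagreed in size and in order. On 1449314_at, R+G+ cells had 9.92 to 11.95, R+G- cells 14.1, 14.5 and 15.9, R-G+ cells 10.3, 11.5 and 12.8, and R-G- cells 5.2, 4.7 and 5.9. Here R+G- arrays were above all others and the groups did not overlap with R-G- cells. The log2 fold change over R-G- cells was 0.68 in R+G+ (adjusted p = 5.7e-05), 1.02 in R+G- (adjusted p = 5.5e-06) and 0.74 in R-G+ cells (adjusted p = 7.0e-05), against the 0.48, 0.48 and 0.31 of the brighter probe set. On this probe set Zfpm2 was also lower in R+G+ than in R+G- cells, by -0.33 (adjusted p = 0.027, against 5.17% of probe sets called in that direction), where the brighter one gave 0.01. Which part of the transcript each probe set reads was not analysed here.

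**Figure D3:**
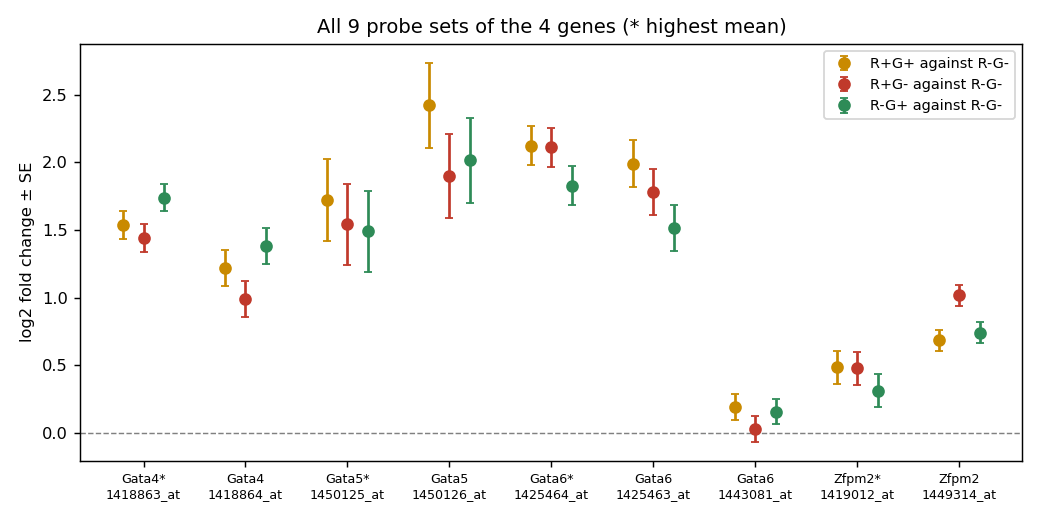
Log2 fold change over R-G- cells (vertical axis, ± SE of the limma fit) for all 9 probe sets of the 4 genes, in R+G+, R+G- and R-G+ cells; an asterisk marks the probe set with the highest mean. All but Gata6 1443081_at, near 0, are above 0, and for Zfpm2 the dimmer probe set has the larger values.

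The sort makes it possible to ask whether the difference that goes with the green reporter depends on the red one. For this, R+G+ minus R+G- was set against R-G+ minus R-G-, and a negative value means a smaller green difference in red-positive cells. Gata4 gave -1.64 (SE 0.15, adjusted p = 4.4e-05) and Gata6 -1.81 (SE 0.20, adjusted p = 0.00019), so 2 of the 4 genes were called negative, against 5.67% of all genes. Gata5 gave -1.31 (SE 0.40, adjusted p = 0.056) and passed with the experiment letter as a block (adjusted p = 3.1e-05), without R-G+ A (-1.62, adjusted p = 0.0071) and without R+G- A (-1.54, adjusted p = 0.034). Zfpm2 gave -0.30 (95% interval -0.68 to 0.07, adjusted p = 0.33).

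For each GATA gene the 3 reporter-positive populations lay close together and the R-G- population apart. The measure uses the same arrays as the comparisons above and is no separate evidence for them. Among the second probe sets, in the fit of all probe sets where 4.76% were called negative, Gata4 1418864_at gave -1.16 (adjusted p = 0.0025), Gata5 1450126_at -1.49 (adjusted p = 0.045), Gata6 1425463_at -1.30 (adjusted p = 0.0045) and Zfpm2 1449314_at -1.07 (adjusted p = 0.00025). The Zfpm2 probe sets thus lay on different sides of the threshold here too.

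**Figure D4:**
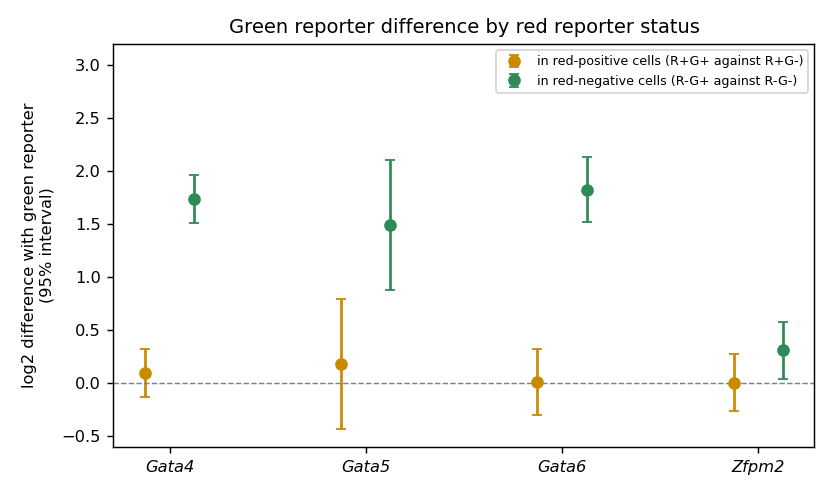
Log2 difference that goes with the green reporter (vertical axis, 95% intervals from the limma fit), in red-positive cells (R+G+ against R+G-) and in red-negative cells (R-G+ against R-G-). For Gata4, Gata5 and Gata6 the first lies between 0.01 and 0.18 and the second between 1.49 and 1.83; for Zfpm2 they are 0.01 and 0.31.

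The remaining genes of the GATA and FOG families on the array were Gata1, Gata2, Gata3, Trps1 and Zfpm1. Zfpm1 codes for FOG1, the relative of FOG2 known as a partner of GATA1 in blood cells. Its intensities were 81.4, 88.7 and 80.7 in R+G+, 95.2, 136.9 and 129.8 in R+G-, and 76.5, 95.8 and 102.1 in R-G+ cells of experiments A, B and C, against 35.1, 50.03 and 58.0 in R-G- cells. It was higher than in R-G- cells by 0.78 on the log2 scale in R+G+ (adjusted p = 0.0030), 1.28 in R+G- (adjusted p = 0.00015) and 0.90 in R-G+ cells (adjusted p = 0.0021), and had a reporter interaction of -1.39 (adjusted p = 0.0029). Without experiment B the R-G+ value (0.91) had an adjusted p of 0.0501 and the interaction (-1.34) one of 0.089, and without experiment C the interaction was -1.37 (adjusted p = 0.050). The second Zfpm1 probe set (1423603_at) had an interaction of -1.43.

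Gata2, a factor of blood and endothelial precursors, had intensities of 25.9, 45.3 and 42.1 in R-G+ cells, against 24.1, 26.8 and 25.2 in R-G- cells. R-G+ A lay inside the R-G- range and the other R-G+ arrays well above it. The log2 fold change of 0.47 passed narrowly (adjusted p = 0.049) and held under 8 of the 27 other settings tried. It was 0.23 in R+G+ (adjusted p = 0.32) and 0.37 in R+G- cells (adjusted p = 0.11, and 0.012 without R-G+ A). The second Gata2 probe set (1428816_a_at) had values near the array medians and was called in none of these comparisons. Its log2 values were -0.05, 0.03 and 0.03 in R+G+, R+G- and R-G+ cells (limma adjusted p = 0.76, 0.89 and 0.87). Gata1, the erythroid factor, averaged 5.8 ± 0.18, 5.9 ± 0.37 and 6.1 ± 0.13 in R+G+, R+G- and R-G+ cells and 7.0 ± 1.1 in R-G- cells, and Trps1, an atypical GATA repressor, 5.3 ± 0.52, 7.5 ± 2.2, 6.6 ± 0.34 and 6.2 ± 0.51 in the same order. Both were near the array medians and were called in none of the 6 comparisons. Gata3 was too dim to pass the filter.

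GATA partner genes, which code for proteins known to bind or to act with GATA4 or its relatives, were mostly higher with a reporter. Of 19 tested, 11 were called higher and 3 lower in R+G+ cells than in R-G- cells (median log2 0.91, against -0.01 for all genes), where 17.6% of all genes were called lower. In R+G- cells 11 were higher and 0 lower (median 0.61), where 12.7% of all genes were lower, and in R-G+ cells 11 were higher and 1 lower (median 0.70), where 11.4% were lower. The 3 lower ones in R+G+ cells, named after their values were seen, were Sp1, Nr2f2 and Smarca4, and 1 was lower without R+G+ A or without experiment C. In R+G- cells 1 was lower without R-G+ A, and in R-G+ cells 0 were lower without experiment B or C.

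The largest changes in R+G+ cells were those of Mef2c (4.20 on the log2 scale, SE 0.22), Myocd (4.03, SE 0.11), Smarcd3 (3.62, SE 0.16) and Nkx2-5 (3.404, SE 0.15). Mef2c and Nkx2-5 are transcription factors that bind GATA4, Myocd is a coactivator of muscle genes, and Smarcd3 codes for the BAF60C subunit that joins cardiac factors to chromatin remodelling. Hand2, a factor of the right ventricle and outflow tract, was higher by 3.24 in R+G+, 3.29 in R+G- and 2.54 in R-G+ cells. Tbx20, another heart T-box factor, was higher by 2.95, 2.41 and 2.78 in the same populations. Tbx5, the best known T-box partner of GATA4, had 0.12, -0.10 and 0.07 and was called in none (adjusted p = 0.38, 0.49 and 0.66); it was picked for its role and not by the naming rule.

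Some partner genes differed between reporter-positive populations. Between R+G+ and R+G- cells 7 of the 19 partners were called higher (background 5.94%) and 2 lower, where 12.1% of all genes were called in either direction. Between R+G+ and R-G+ cells 5 were higher and 0 lower, where 5.63% of all genes were called in either direction. Between R+G- and R-G+ cells 0 were called in either direction, near the background of 3.08%. Whether partners and the 4 genes differ in this was not tested. The lower ones were Smarca4 and Nr2f2, 0 of which were left without experiment A or B and 1 without experiment C, any R+G+ array or R+G- A. In the reporter interaction 9 of 19 were called negative, against 5.67% of all genes.

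**Figure D5:**
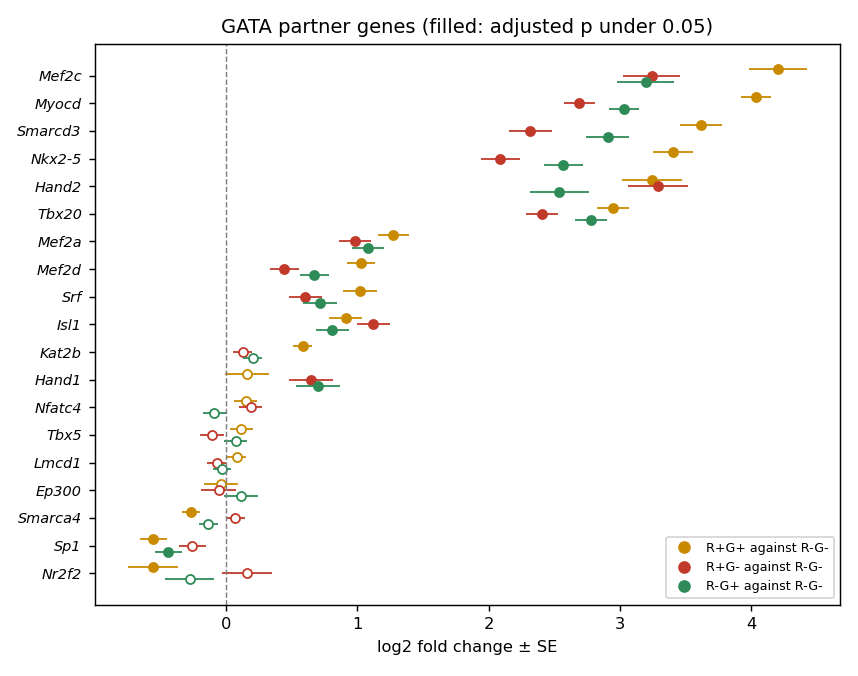
Log2 fold change over R-G- cells (horizontal axis, ± SE) of the 19 GATA partner genes tested, ordered by the R+G+ value; filled points have an adjusted p under 0.05. Mef2c, Myocd, Smarcd3, Nkx2-5, Hand2 and Tbx20 are above 2 in all 3 populations, and Tbx5 is near 0.

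Of the genes known as cardiac GATA targets, 23 of 25 were on the array and 21 passed the filter. In R+G+ cells 16 were called higher and 0 lower than in R-G- cells (median log2 2.97), in R+G- cells 14 and 0 (median 1.57) and in R-G+ cells 16 and 0 (median 2.26). In the same order 13.9%, 10.9% and 9.33% of all genes were called higher. Tnnt2, cardiac troponin T, was higher by 6.17, 3.58 and 5.09 in R+G+, R+G- and R-G+ cells, and Myh6, the alpha myosin heavy chain, by 5.87, 2.20 and 4.97. Actc1, cardiac actin, was higher by 5.41, 2.80 and 4.82. Slc8a1, whose promoter window holds 3 motifs, was higher by 2.97 in R+G+ and 1.66 in R-G+ cells, and had 0.65 in R+G- cells (adjusted p = 0.067).

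The natriuretic peptide genes Nppa and Nppb, the classic GATA4 reporters in heart muscle cells, had small values and are named for that role, outside the naming rule. Nppb was higher in R+G+ cells by 0.49 (adjusted p = 0.019), with 0.24 in R-G+ and -0.02 in R+G- cells, and Nppa had 0.34 (adjusted p = 0.051), 0.16 and 0.002 in R+G+, R-G+ and R+G- cells. The target list shares Hand2, Mef2c, Nkx2-5 and Smarcd3 with the partner list and Bmp4 with the list of inducers described further on. It also shares most of its sarcomere genes with the cardiomyocyte list, so these counts are not separate observations. Between R+G+ and R+G- cells 13 of 21 targets were higher (background 5.94%) and 1, Cdk4, lower (0 without experiment A or B). Over all genes 12.1% were called there in either direction. In the same comparison Gata4, Gata5 and Gata6 differed by 0.10, 0.18 and 0.01.

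FOG corepressor genes, which code for CtBP and NuRD subunits and the nuclear receptor Nr2f2, were called in both directions, in R+G+ cells more often lower. Of 16 tested, 3 were higher and 8 lower in R+G+, 4 and 4 in R+G-, and 2 and 5 in R-G+ cells than in R-G- cells (medians -0.27, 0.14 and -0.13). Over all genes 13.9% were higher and 17.6% lower in R+G+, 10.9% and 12.7% in R+G-, and 9.33% and 11.4% in R-G+ cells. In R+G+ cells 6 to 9 were lower with any 1 array left out. Mbd2, a methyl-DNA binding subunit of NuRD, was higher by 0.98, 0.80 and 0.70 in R+G+, R+G- and R-G+ cells. Hdac1, a histone deacetylase of the complex, was lower in R+G+ cells by -0.48, Gatad2a, a NuRD scaffold protein, by -0.55, and Nr2f2 also by -0.55. In R+G- cells the remodelling subunits Chd3 and Chd4 were higher by 0.42 and 0.33, and Mta3, another NuRD subunit, was lower by -0.38. In R-G+ cells the histone-binding subunit Rbbp7 was higher by 0.62, and Ctbp2, a corepressor, and Mta3 were lower by -0.53 and -0.37. Single arrays decided several of these counts. In R+G- cells 2 were higher without R-G- B, and 1 or 2 were lower without R+G+ B, R-G- B or C, or any R+G- array. In R-G+ cells 1 was higher without R-G+ B or R-G- B, and 2 or 3 were lower without R-G+ B, R-G- B or R-G- C, against 7 without R-G+ A.

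The list of inducers of cardiac GATA genes holds BMP and Nodal signals, their receptors and SMADs, and mesoderm factors. Of 25 tested, 9 were higher and 4 lower in R+G+, 8 and 1 in R+G-, and 8 and 0 in R-G+ cells than in R-G- cells (medians 0.12, 0.09 and 0.12). Shares over all genes are those printed for the FOG corepressor genes, and the 4 lower in R+G+ cells were near the 17.6% there. The higher ones included the ligands Bmp5 (2.76, 2.20 and 2.20 in R+G+, R+G- and R-G+ cells), Bmp4 (2.46, 1.81 and 1.94) and Bmp2 (0.67, 1.08 and 1.10), and the receptor Bmpr2 (0.83, 1.16 and 1.06). Tdgf1, the Nodal coreceptor, which is also on the pluripotency list, was higher by 1.62 in R+G+ and lower by -1.01 in R+G- cells. It had 0.003 in R-G+ cells. The lower counts moved with R-G+ A: without it 3 were lower in R+G- and 2 in R-G+ cells. Without R+G+ A, R+G+ B or R-G+ C 2 were lower in R+G- cells. The counts of partners, targets and inducers called higher than in R-G- cells stayed within 1.5 times whichever array or experiment was left out.

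Since Gata4 and Gata6 are also transcribed in endoderm, and Gata2 and Zfpm1 in blood and endothelium, markers of these cells were read beside them. The summed intensity of 19 endoderm genes was 286 to 584 in R+G+, 336 to 652 in R+G- and 706 to 3769 in R-G+ arrays, against 585 to 1859 in R-G- arrays. The R+G+ sums were all under the lowest R-G- sum. The R-G+ sums were 3769, 706 and 1238 in experiments A, B and C, and the mean of R-G+ arrays was 1904, or 972 without A, against 1213 in R-G- arrays. Gata4 had its highest mean in R-G+ cells and its highest single value (202.4) in R-G+ A, the array with the highest endoderm sum, while Gata6 had its lowest reporter-positive value (105.1) there. Without R-G+ A the log2 fold change over R-G- cells in R-G+ cells was 1.71 for Gata4 and 1.97 for Gata6, and the part of endoderm cells in these levels was not tested. Of 19 endoderm genes tested, 1 was higher and 4 lower in R+G+, 2 and 1 in R+G-, and 2 and 0 in R-G+ cells than in R-G- cells. Over all genes 13.9% were higher and 17.6% lower in R+G+, 10.9% and 12.7% in R+G-, and 9.33% and 11.4% in R-G+ cells, so the shares of 4 lower in R+G+ cells and of 2 higher in R+G- and R-G+ cells were near the background. These counts were unsteady: without R-G+ A 9 were lower in R+G+, 8 in R+G- and 2 in R-G+ cells. Foxa2, a defining endoderm factor, had 84.9, 18.4 and 25.3 in R-G+ cells of experiments A, B and C, against 38.4, 35.1 and 43.2 in R-G- cells. Its R-G+ mean of 42.9 was above the R-G- mean of 38.9 through R-G+ A alone, and was 21.9 without that array. It averaged 11.5 in R+G+ and 14.8 in R+G- cells. Sox17, an endoderm factor also found in endothelium, averaged 12.6 in R+G+, 18.7 in R+G- and 60.6 in R-G+ cells (44.1 without R-G+ A), against 31.3 in R-G- cells.

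For blood, 14 genes summed to 173 to 216 in R+G+, 190 to 266 in R+G- and 193 to 276 in R-G+ arrays, against 1190 to 2102 in R-G- arrays. Of 12 tested, 0 were higher and 4 lower, 1 and 5, and 1 and 4 in those populations, led by the embryonic globins Hbb-bh1 (-4.81 in R+G+ cells), Hbb-y (-4.25) and Hba-x (-3.95). For these and the endothelial genes the shares over all genes are those printed with the endoderm counts. The 15 endothelial genes summed to 334 to 463, 749 to 986 and 489 to 1187, against 279 to 405 in R-G- arrays. Of these 0 were called in R+G+, 6 higher in R+G- and 8 higher in R-G+ cells (14 without R-G+ A, 2 without experiment B and 1 without experiment C), among them the receptor Kdr (1.83 in R+G- and 1.70 in R-G+ cells). Zfpm1 and the dimmer Zfpm2 probe set had their highest means in R+G- cells, 121 and 14.8, against 91.5 and 11.6 in R-G+ cells. The endothelial sums of R+G- and R-G+ arrays were both above those of R+G+ and R-G- arrays. Their median was 843 in R+G- and 1141 in R-G+ arrays, so the sum and these levels did not have the same order. The part of endothelial cells in these levels was not tested.

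The other marker lists stood as follows in R+G+, R+G- and R-G+ cells against R-G- cells, beside the shares over all genes printed with the endoderm counts. Cardiomyocyte genes were higher for 13, 11 and 12 of 14 and lower for 0. Pluripotency genes were lower for 7, 8 and 7 and higher for 2, 1 and 0 of 11, neural genes lower for 2, 2 and 1 and higher for 0 of 6, and genes of epicardium and septum transversum higher for 1, 1 and 0 and lower for 0, 1 and 0 of 5. No marker was at 0, since the lowest value in the table was 2.09.

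Across the 12 arrays the genes whose log2 values were most like those of each member were found by Pearson correlation. The arrays of a population share their level and those of an experiment their deviations, so the values describe these arrays only. Gata6 was most like Hand2 (0.990), Rcsd1 (0.984), Adcy6 (0.981) and Mef2c (0.977). Gata4 was most like Akap2 (0.978), Tbx20 (0.978), Cnppd1 (0.974) and Col4a2 (0.965).

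For Gata5 the nearest were Pdlim1 (0.972), Dok4 (0.963), Tspan18 (0.961) and Meis1 (0.961), and for Zfpm2 Jund (0.929), Tmcc3 (0.914), Il1r1 (0.910) and Mxra7 (0.904). Hand2 averaged 218 in R+G+, 224 in R+G- and 136 in R-G+ cells, against 19.3 in R-G- cells, so like Gata6 it had its lowest reporter-positive mean in R-G+ cells. Among the members the correlation was 0.944 for Gata5 and Gata6, 0.936 for Gata4 and Gata6, 0.855 for Gata4 and Gata5, and 0.702 to 0.848 for Zfpm2 with the others. Over the 9 reporter-positive arrays alone it was 0.732 for Gata5 and Gata6, -0.460 for Gata4 and Gata6, -0.027 for Gata4 and Gata5, -0.168 for Gata4 and Zfpm2, 0.597 for Gata5 and Zfpm2 and 0.655 for Gata6 and Zfpm2. R-G+ A had both the highest Gata4 (202.4) and the lowest Gata6 value (105.1) of these arrays. The -0.460 leans on that array and was not computed without it. Without the R-G- arrays the 4 nearest genes gave 0.367 to 0.583 for Gata4, 0.757 to 0.917 for Gata5, 0.597 to 0.925 for Gata6 and 0.779 to 0.934 for Zfpm2. The values among Gata5, Gata6 and Zfpm2 were thus above 0 without the R-G- arrays. Those of Gata4 with the other members were below 0, the one with Gata5 only just.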

How the data were processed

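The authors deposited 1 probe set intensity per array on a linear scale for 12 Affymetrix mouse arrays (3 in each of 4 sorted populations). Per the labels' protocols, the biotinylated cRNA started from 5 ug of RNA. MAS5 is named in the submitters' processing notes, with no version or role. The deposited values have a lowest value of 2.09 to 2.22 on each array and 2% trimmed means of 22.1 to 23.8, not a common one, so whether they are MAS5 signals, and how they were scaled, is not settled, and this bears on every intensity and fold change. Groups were taken from the sample titles. A genome build is not given in the sources used here.

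Of 45101 probe sets, 64 controls, 932 with several genes and 9160 without a listed gene were left out. Symbols were updated through RefSeq, except 204 without a current entry. Values were used as log2(intensity + 4.10), the addend being their 25th percentile, and were not normalized again, so fold changes of dim probe sets are understated. For a gene the probe set brightest on average in log2 was used, and the gene was left out if its mean fell below the 40th percentile over probe sets (3.22). The fits used limma 3.58.1 under R 4.3.3 (functions lmFit and eBayes, two-sided, 1 mean per population, 8 residual degrees of freedom) to all arrays, and each of the 6 comparisons, the interaction and the F-test was adjusted by Benjamini-Hochberg over 13698 genes, with a threshold of 0.05. Every adjusted p in the text comes from limma. The procedure was tested on simulated data with independent arrays, which leave out the deviations that arrays of the same experiment share. Plots used matplotlib 3.10.9 (Python 3.11.15).

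Deviations from population means correlated at 0.116 to 0.424 in all 18 pairs of arrays with the same experiment letter, so arrays with the same letter share deviations. The labels do not say that the letter pairs the sorts, and the main fit left it out. The block model was an alternative, and its value stands beside a result where it changes the call.

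The genes, lists and alternatives were chosen with earlier results of these data known. Named were the 4 genes with every probe set, the other GATA and FOG genes, from each list up to 4 of the called members that changed most in a comparison (not all are printed), and the 4 genes most correlated with each member. Other alternatives concerned the pseudocount, filter, normalization, probe set choice, variance model, a minimum fold, the arrays in the fit, and each array or experiment left out.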

Additional observations from a re-analysis of the deposited data

Results flagged for a closer look

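The difference that goes with the green reporter was smaller in red-positive than in red-negative cells by the interaction test for several genes of the family. The log2 value was -1.6433 for Gata4, -1.8141 for Gata6 and -1.3917 for Zfpm1, each past the threshold in limma. On other probe sets, in the fit of all probe sets, it was -1.1562 for Gata4 (1418864_at), -1.4917 for Gata5 (1450126_at), -1.3017 for Gata6 (1425463_at), -1.4278 for Zfpm1 (1423603_at) and -1.0708 for Zfpm2 (1449314_at). Populations of 3 arrays are too small for a check of single arrays against their group.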

How the results depend on the processing

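The calls of Gata4 and Gata6 over R-G- cells and in the interaction held under every alternative run, at log2 values of 1.17 or more over R-G- cells. Zfpm2 was called in none of the comparisons with R-G- cells at a minimum log2 fold change of 1. With the mean of its probe sets Zfpm2 was higher in R-G+ than in R-G- cells (0.52) and had an interaction of -0.69 (adjusted p = 0.0019). The Gata5 interaction also passed with a pseudocount of 1 (-1.47), a filter at the 60th percentile and without experiment A (-1.42). The experiment as a replicate block (paired analysis) changed no other call of the 4 genes, but gave 1282 genes called between R+G+ and R-G+ cells and 789 between R+G- and R-G+ cells, against 771 and 422 without it. Fits to the 6 arrays compared gave 258 and 196. With a minimum log2 fold change of 1 the counts of all genes were 714, 459 and 378 over R-G- cells (R+G+, R+G-, R-G+), 274, 153 and 120 among reporter-positive cells and 388 in the interaction. Every probe set on its own gave 6611 probe sets between R+G+ and R-G- cells, where more features were tested, against 4317 genes.

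Leaving out an array or an experiment gave 2741 to 4569 genes for R+G+ against R-G- cells, 1764 to 3581 for R+G- against R-G-, 1286 to 3167 for R-G+ against R-G-, 613 to 1956 for R+G+ against R+G-, 186 to 775 for R+G+ against R-G+, 51 to 475 for R+G- against R-G+, 263 to 1701 in the interaction and 2335 to 4800 in the F-test. The lowest counts were those without experiment B or C, where fewer arrays were used, and all but 1 of the highest those without R-G+ A. Small uncalled differences changed sign. Between R+G+ and R+G- cells the range with arrays left out was -0.012 to 0.16 for Gata4, -0.051 to 0.39 for Gata5, -0.079 to 0.095 for Gata6 and -0.10 to 0.19 for Zfpm2. Gata5 ran from -0.079 to 0.44 between R+G+ and R-G+ cells and from -0.26 to 0.28 between R+G- and R-G+ cells. Median scaling gave -0.013 for Gata6 and -0.016 for Zfpm2, and the mean of a gene's probe sets -0.16 for Zfpm2, all between R+G+ and R+G- cells, and -0.032 for Gata5 between R+G- and R-G+ cells. The cause of these changes was not tested. Of 3564 counts of list genes under the alternatives, 3131 stayed within 1.5 times, and these include counts of 0 that stayed at 0.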
